A study of Homo sapiens with 36 samples.

Results

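Differential m6A at the 5′ ends of protein-coding genes was examined in UM-SCC-1, an established human head and neck squamous cell carcinoma line, after retroviral delivery of shRNAs against ALKBH5 or RBM33. The members were the rows of the authors' 4 deposited tables of differential m6A that carry the name of a protein-coding gene and begin within 300 bases of that gene's 5′ end on its own strand. There were 2229 such rows of 37709 in all, on 1721 genes. By table they numbered 1288 of 13120 rows for ALKBH5 shRNA-1, 753 of 19251 for ALKBH5 shRNA-2, 57 of 2070 for RBM33 shRNA-1 and 131 of 3268 for RBM33 shRNA-2.

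The groups were ALKBH5 shRNA-1 and ALKBH5 shRNA-2, set against the ALKBH5 scramble, and RBM33 shRNA-1 and RBM33 shRNA-2, set against the RBM33 scramble. Every group, the scrambles included, was the same cell line, carried a retroviral vector and had been selected in 10 ug/mL blasticidin for 4 days. The labels list 36 samples in 12 groups of 3, with m6A-seq (sequencing of RNA pulled down with an antibody to m6A) and total RNA-seq of each condition, and 15 of the 18 RNA-seq libraries were analysed here. Nothing in the labels says that replicates came from separate cultures, and a p-value may then reflect technical spread alone. Both ALKBH5 contrasts share 1 set of scramble libraries, and both RBM33 contrasts share another.

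N6-methyladenosine (m6A) is a methyl mark on internal adenosines of messenger RNA, written by the METTL3 and METTL14 complex and removed by the demethylases ALKBH5 and FTO. It is known to be dense near stop codons. Antibodies to m6A also bind m6Am, the methylated form of the first transcribed adenosine next to the cap, which PCIF1 writes, so that antibody signal at a gene start can come from either mark. RBM33 is an RNA-binding protein known as a partner of ALKBH5.

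The targeted genes were checked first. ALKBH5 RNA was 84.7 and 84.8 CPM in the ALKBH5 shRNA-1 libraries and 75.1 and 89.6 CPM in the ALKBH5 shRNA-2 libraries, against 109, 132 and 123 CPM in the scramble. It fell in both, by 0.51 ± 0.10 and 0.55 ± 0.10 log2 (± SE; adjusted p by limma = 0.0018 and 0.0006), and the groups did not overlap. RBM33 RNA was 191 and 204 CPM with RBM33 shRNA-1 and 208, 199 and 214 CPM with RBM33 shRNA-2, against 217, 207 and 227 CPM in its scramble, and neither difference passed the test (-0.13 and -0.07 log2, limma adjusted p = 0.28 and 0.56). RBM33 shRNA-1 and shRNA-2 are therefore used below as labels of libraries in which a fall of RBM33 RNA was not shown. Library totals ran from 4493849 to 6733017 reads. Of 5 squamous markers examined (KRT5, KRT14, KRT17, KRT6A and TP63), none had a row among the 21797 genes of the analysed table, in which every listed gene reaches at least 0.855 CPM in some library. VIM, which mesenchymal cells and many cultured lines express, ran from 282 to 381 CPM, and the neurofilament gene NEFM, looked up after its values were seen, ran from 213 to 268 CPM. The keratin genes KRT8 and KRT18, looked up in the same way, ran from 56.5 to 96.7 CPM and from 28.3 to 48.4 CPM. NEFL, also looked up then, ran from 162 to 206 CPM, and SFN from 0.162 to 3.63 CPM. The 5 squamous markers thus did not show the squamous identity that the label gives, though the keratin genes KRT8 and KRT18 were expressed. The ranges span libraries of every group. In bulk libraries fewer cells of a type and less RNA per cell cannot be told apart.

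To show what lies at these gene starts, the first 30 transcribed bases are given for genes whose RefSeq start (GRCh38.p14) lies within 10 bases of the deposited gene start. Capitals mark DRACH, the motif in which m6A is known to be written: A, G or T, then A or G, then AC, then A, C or T, which makes 18 sequences of 5 bases, searched on the transcribed strand.
The coordinates are those of the bases shown, and the differential region of each gene covers all or part of them.
The first set had higher m6A at the start in the ALKBH5 shRNA-1 table.
WDR48 (chr3:39052016-39052045, + strand): aacatgcaagatggcggcccatcaccggca
YWHAE (chr17:1400193-1400222, - strand): ggattgaggcgccgccatttttgctgcccg
RPS19 (chr19:41860255-41860284, + strand): ccctttcccctggctggcagcgcggaggcc
RPL12 (chr9:127451377-127451406, - strand): cctctcggctttcggctcggaggaggccaa
DDIT4 (chr10:72273924-72273953, + strand): gcagcaggccaagggggaggtgcgagcgtg
HSPA5 (chr9:125241314-125241343, - strand): gacgccggccaAGACAgcacAGACAgattg
The next set had lower m6A at the start in the ALKBH5 shRNA-2 table.
EBP (chrX:48521808-48521837, + strand): actaggggatgagcccGAACTagggatgtg
SLIRP (chr14:77708071-77708100, + strand): ggggccgcgacctcggctcgagaaggtgct
In the last set 1 differential region, which covers all the bases shown, was higher in the ALKBH5 shRNA-1 table and lower in the ALKBH5 shRNA-2 table.
RGS2 (chr1:192809039-192809068, + strand): gcAAACAgccggggctccagcgggagaacg
ARPC5 (chr1:183635754-183635783, - strand): agtcggcgacgcctcagagcggaagaggga

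The motif shares of such starts are given as a description, with no test. A RefSeq start within 10 bases was found for 5192 of 14984 protein-coding gene entries. Over those, 39.1% held DRACH in the first 50 bases and 48.2% began with A. For ALKBH5 shRNA-1 hosts with higher m6A upstream or in the first 100 bases the shares were 36.6% and 41.3% of 317 genes, and for ALKBH5 shRNA-2 hosts with lower m6A there they were 41.2% and 52.0% of 102 genes. Over all 35116 promoter entries of the RefSeq table, whatever the gene type, 49.6% held DRACH in the same 50 bases, and 50.6% held it on the opposite strand. These are matches of letters and not mapped sites.

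The main feature of the members was where along the first 300 bases the m6A effect was higher or lower. The effect is the authors' value for shRNA over scramble on the natural log scale, and every row in the 4 tables had an absolute effect of at least about 0.5. Because the m6A-seq values per library were not analysed here, no error can be put on an effect, and the p-values given with effects are the authors'. In the authors' deposited table for ALKBH5 shRNA-1, 820 of 1288 members were higher and 468 lower (63.7% higher; exact binomial 95% interval 61.0 to 66.3, counting error only). In that for ALKBH5 shRNA-2, 318 of 753 were higher and 435 lower (42.2%, interval 38.7 to 45.9). In those for RBM33 shRNA-1 and shRNA-2, 51 of 57 (89.5%, interval 78.5 to 96.0) and 119 of 131 (90.8%, interval 84.5 to 95.2) were higher. The other rows on protein-coding genes, those more than 300 bases from the 5′ end, were higher in 65.1%, 74.5%, 88.6% and 87.8% in the same order of tables. Of the 4 tables, ALKBH5 shRNA-2 had the members' share farthest from that of its other rows.

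The direction by distance ran in opposite ways in the authors' deposited tables for both ALKBH5 shRNAs. With ALKBH5 shRNA-1, 127 of 134 rows beginning upstream of the gene start were higher, 294 of 300 in bases 0 to 49, and 177 of 225 in bases 50 to 99. Further in, lower rows prevailed: 133 of 205 in bases 100 to 149, 121 of 179 in bases 150 to 199, 86 of 125 in bases 200 to 249 and 67 of 120 in bases 250 to 300. With ALKBH5 shRNA-2, lower rows prevailed at the start, with 15 of 22 upstream, 58 of 63 in bases 0 to 49, 120 of 136 in bases 50 to 99 and 105 of 134 in bases 100 to 149. Higher rows then took over, with 92 of 125 in bases 200 to 249 and 108 of 145 in bases 250 to 300. As the 2 contrasts share their scramble libraries, no test of one against the other was made. Just inside and just outside the 300-base limit, CENPB (1.67) and CHTOP (-0.74) began at base 300, and BANF1 (0.74) and UBE4B (1.34) at base 301, in the authors' deposited ALKBH5 shRNA-1 table.

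**Figure D1:**
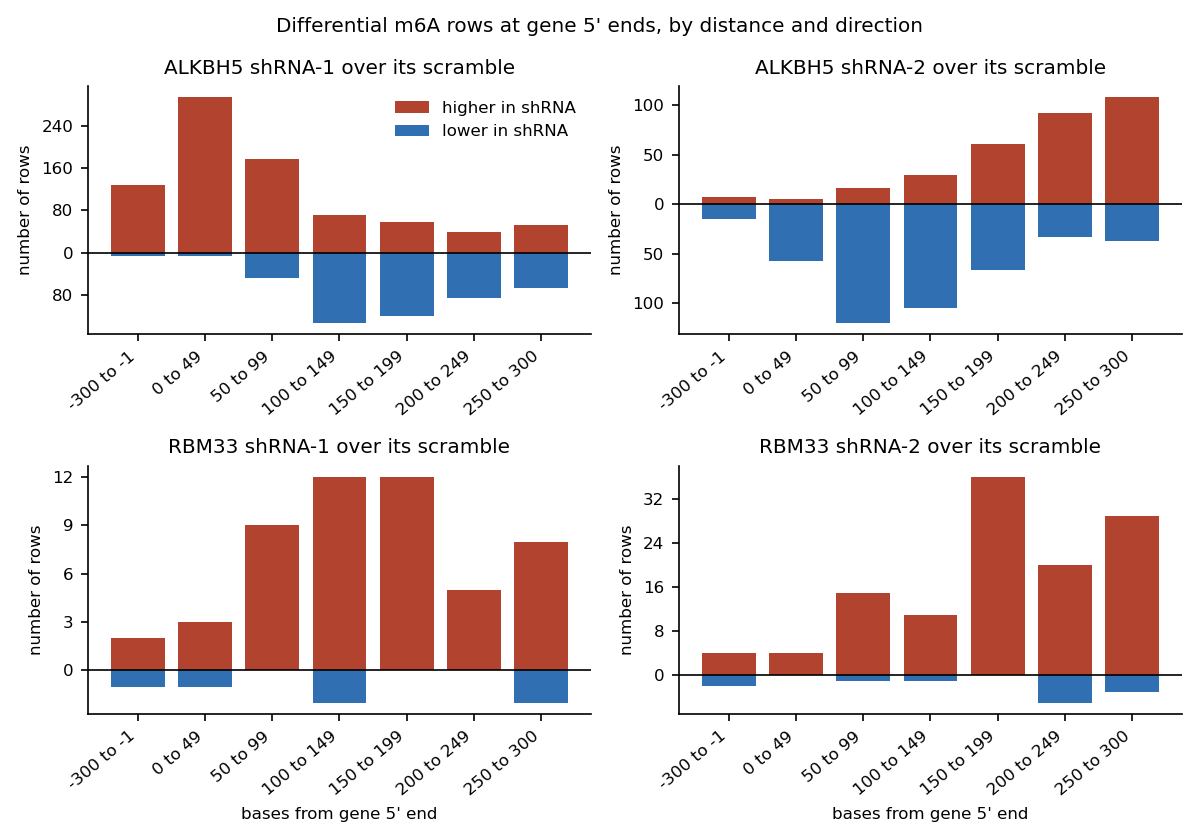
Number of member rows by distance of the row's 5′ end from the gene's 5′ end, with rows higher in shRNA drawn above 0 and rows lower in shRNA below it, for the 4 tables (the vertical scales differ). For ALKBH5 shRNA-1 the highest bar is 294 higher rows in bases 0 to 49, where ALKBH5 shRNA-2 has 58 lower rows and 5 higher ones.

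The libraries labelled RBM33 shRNA showed no such reversal. In the authors' deposited tables, 12 of 13 rows in the first 100 bases were higher with RBM33 shRNA-1 and 19 of 20 with RBM33 shRNA-2, and from base 100 to base 300 the counts were 37 of 41 and 96 of 105. Beyond the limit the ALKBH5 shRNA-1 rows stayed below an even split to base 1000, with 37.2% higher in bases 301 to 500 and 45.6% in bases 501 to 1000. The ALKBH5 shRNA-2 rows were 80.2% and 70.2% higher over the same stretches. Starts were also unequally filled: members made up 10.6% of rows on protein-coding genes for ALKBH5 shRNA-1, against 4.22%, 2.99% and 4.38% for ALKBH5 shRNA-2, RBM33 shRNA-1 and RBM33 shRNA-2.

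**Figure D2:**
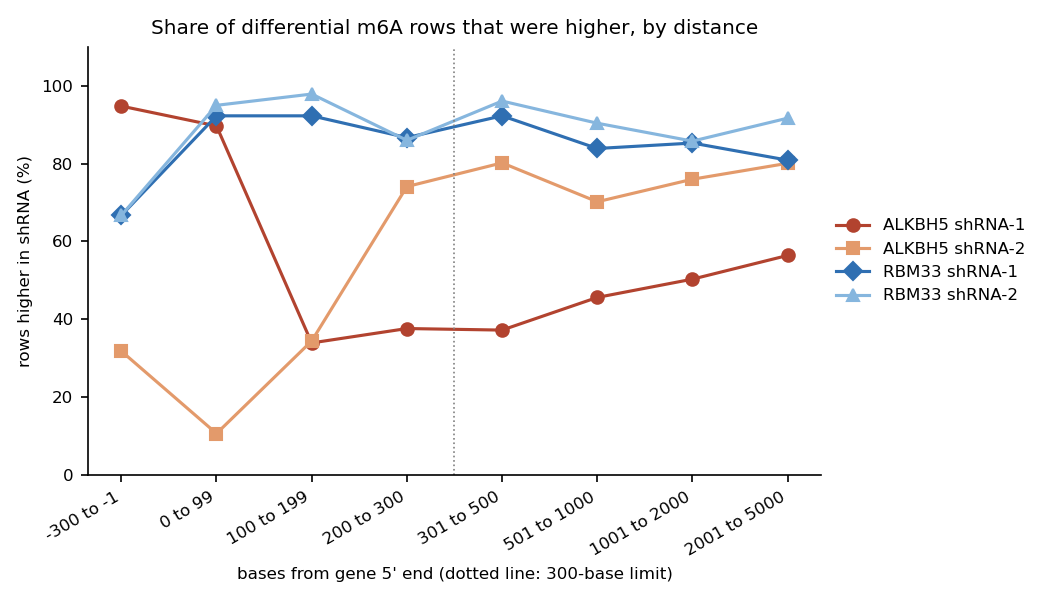
Percentage of rows higher in shRNA, by distance from the gene's 5′ end to base 5000, for the 4 tables; the dotted line marks the 300-base limit. ALKBH5 shRNA-1 drops between bases 0 to 99 (89.7%) and 100 to 199 (33.9%), while ALKBH5 shRNA-2 climbs between bases 0 to 99 (10.6%) and 200 to 300 (74.1%).

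The shift along the first 300 bases was seen inside single genes. In the authors' deposited ALKBH5 shRNA-1 table, 56 genes had both a higher and a lower member. In 53 of them the higher one lay nearer the start. These rows are among those already counted by distance, so their order is no separate support. RBM14 and RBM14-RBM4, which share their start region, are both among the 56. For EIF4EBP1, the repressor of cap-binding eIF4E, the effect was 1.86 at base -32 and -1.14 at base 118. For HNRNPU, a nuclear RNA-binding scaffold, it was 1.71 at base 35 and -0.70 at base 185. CCND1, which encodes cyclin D1, had 0.74 at base -1 and -0.79 at base 199. SLC38A2, a neutral amino acid transporter, had 1.70 at base 11 and -0.58 at base 111. With ALKBH5 shRNA-2 only 4 genes had both, and in all 4 the lower row was nearer the start, as in LSM14A, a component of processing bodies (-0.87 at base 43 and 0.85 at base 243).

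Identical regions could also be set side by side. Over the region at base 0 of RGS2, a regulator of G-protein signalling, the authors' deposited tables gave 1.27 for ALKBH5 shRNA-1 (p = 0.0015) and -1.03 for ALKBH5 shRNA-2 (p = 0.0017). For SPTSSA, a subunit of serine palmitoyltransferase, they gave 0.86 and -1.79 at base 28. For ZNF449, a zinc finger gene, they gave 1.83 and -1.36 at base -25. MARK3, a microtubule affinity kinase, had 1.44 and -0.68 at base 37, and ARPC5, a subunit of the actin nucleating complex, had 0.90 and -0.68 at base -8. These genes were chosen after their values were seen. They were in the minority: most identical regions beginning between base -151 and base 99 had the same sign in both tables. Among those, COA7 had 1.25 and 0.92 at base 31, and NFKBIA, the inhibitor of NF-kappa-B, had -1.32 and -0.87 at base 95.

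The largest rises at gene starts were in the ALKBH5 shRNA-1 table, which by its median effect among higher members (1.39, a 4.0-fold ratio) stood above the other 3 (1.06, 1.07 and 1.02). The authors' deposited table put EXOSC4, a subunit of the RNA exosome, first with 4.28 at base -29, then WDR48 (4.11 at base -27), a cofactor of deubiquitinating enzymes, and YWHAE (4.06 at base -40). RPL37A, a ribosomal protein, had 4.01 at base -28 and MTFP1, a mitochondrial fission factor, 3.95 at base 150. The lowest in the same table lay further in, with ARL10 at -4.33 (base 212), MCAT, of mitochondrial fatty acid synthesis, at -4.22 (base 251), MCUR1, a regulator of mitochondrial calcium uptake, at -3.99 (base 158) and ALG9, a mannosyltransferase, at -3.76 (base 150). TMEM138 at base -143 (-4.08) was the exception upstream. The fold ratios of the 5 highest were all multiples of 0.5 within rounding. Over the 4 tables only 5.67 to 7.83% of effects were logs of such multiples. The read counts behind these ratios, and behind the lowest, down to 0.0132 for ARL10, are not given here. The part of few reads in these extremes was not tested.

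In the authors' deposited ALKBH5 shRNA-2 table, 4 of the 5 highest members lay beyond base 100. The read counts behind the extremes of that table are not given here either. MAPK8IP3, a kinase scaffold and motor adaptor, had 4.01 at base 237, CDO1, cysteine dioxygenase, 3.33 at base 251, AMH, anti-Müllerian hormone, 2.97 at base -45, SUMO4 2.96 at base 247 and POMGNT2, a glycosyltransferase, 2.62 at base 146. The lowest were EBP, a sterol isomerase, at -3.06 (base 27), MBD2, a reader of methylated DNA, at -3.04 (base 231), MLYCD at -2.64, ABCA3 at -2.61 and MCUR1 at -2.46, in the region that was also low with ALKBH5 shRNA-1.

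Per the authors' deposited table for RBM33 shRNA-1 the highest were WDR47 (2.30), AMH (2.13), NELFCD, of the negative elongation factor (1.99), GNPAT, an ether lipid enzyme (1.95), and UBE2G2, a ubiquitin-conjugating enzyme (1.76). The 5 lowest were G0S2, an inhibitor of fat breakdown (-2.66), CORT, the neuropeptide cortistatin (-1.91), BAG3 (-0.95), JUNB (-0.73) and TMEM18 (-0.67). For RBM33 shRNA-2 the highest were SRA1 (2.51), TM7SF2, of sterol synthesis (2.43), RASAL2, a Ras GTPase activator (2.35), AMH (2.28) and DCTPP1, a nucleotide pyrophosphatase (1.92). The lowest were SLC10A5 (-1.95), the topoisomerase TOP3A (-1.69), CORT (-1.68), TIMM13, a mitochondrial import chaperone (-1.41), and FOXO6, a forkhead factor (-1.37).

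Recurrence over the tables is given as counts. Of the 1721 genes, 1375 had a member in 1 table, 320 in 2, 23 in 3 and 3 in all 4, namely AMH, JUNB and SRA1. JUNB, a transcription factor of the AP-1 family and an immediate early gene, was lower in the authors' 4 deposited tables at 1 region, base 260 (chr19:12791746-12791795, + strand). Its effects were -0.92 and -0.79 with ALKBH5 shRNA-1 and shRNA-2 and -0.73 and -0.64 with RBM33 shRNA-1 and shRNA-2. SRA1, known as a steroid receptor coactivator gene, was higher in all 4 from base 159, with 3.86, 1.19, 1.5 and 1.87 in the same order. AMH was higher in all 4, with 2.04 at base -145 for ALKBH5 shRNA-1, up to 2.97 for ALKBH5 shRNA-2, and 2.13 and 2.28 at base -95 for RBM33 shRNA-1 and shRNA-2. TMEM18 was lower over 1 shared region in 3 tables (-1.09, -1.09 and -0.67). KMT2E, of a family of histone methyltransferases, had -0.81 at base 150 with ALKBH5 shRNA-1, and 1.16 and 1.63 at base 250 with ALKBH5 shRNA-2 and RBM33 shRNA-1.

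**Figure D3:**
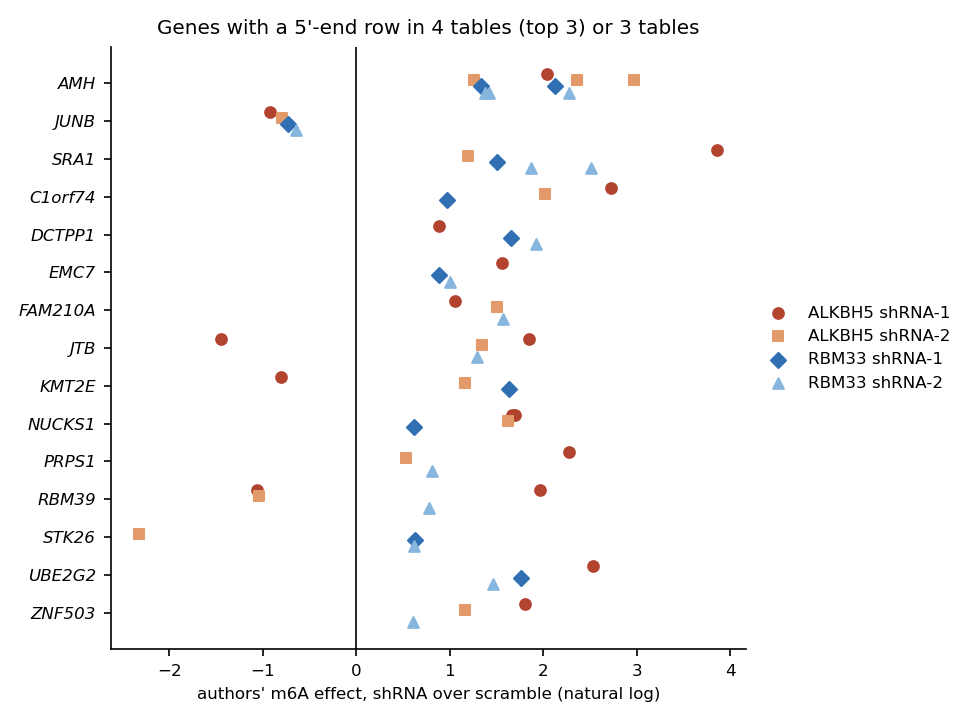
The authors' m6A effect, shRNA over scramble on the natural log scale, of every member row of 15 genes that had a row in 4 tables (AMH, JUNB and SRA1, at the top) or 3 tables. JUNB lies left of 0 in all 4, between -0.92 and -0.64, and KMT2E, JTB, RBM39 and STK26 lie on both sides.

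ALKBH5 and RBM33 members were compared by place and by host gene. Regions that shared at least 1 base numbered 7 for ALKBH5 shRNA-1 with RBM33 shRNA-1 (0.543% of ALKBH5 members and 12.3% of RBM33 members) and 15 with RBM33 shRNA-2 (1.16% and 11.5%). For ALKBH5 shRNA-2 they numbered 11 (1.46% and 19.3%) and 15 (1.99% and 11.5%). The same shares over all rows are not given here, so whether 5′ ends are shared more or less than other places cannot be read from them. By host gene, 20 of 56 RBM33 shRNA-1 hosts and 40 of 127 RBM33 shRNA-2 hosts were also among the 1186 ALKBH5 shRNA-1 hosts, and 14 and 33 of them were among the 727 ALKBH5 shRNA-2 hosts. Of all 14968 protein-coding genes, 7.92% were ALKBH5 shRNA-1 hosts and 4.86% ALKBH5 shRNA-2 hosts. Per the authors' deposited tables ALKBH5 shRNA-2 and RBM33 shRNA-1 had 8 of those pairs higher in both and 3 lower in both. ALKBH5 shRNA-1 and RBM33 shRNA-2 had 7 higher in both, 2 lower in both and 6 that were lower with ALKBH5 shRNA-1 and higher with RBM33 shRNA-2, among them RBM39, an RNA-binding protein of splicing (-1.06 and 0.78), and OSBPL11, a lipid-binding protein (-1.23 and 0.78).

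Gene lists are described by how many of their genes had a member, beside the share of all protein-coding genes that did, which was 7.92% and 4.86% for ALKBH5 shRNA-1 and shRNA-2 and 0.374% and 0.848% for RBM33 shRNA-1 and shRNA-2. Hosts are more abundant than genes at large, and the part of abundance in these counts was not tested. The cytosolic ribosomal protein genes with a member were higher at the start with ALKBH5 shRNA-1. Per the authors' deposited table, 13 of 80 genes had a member, all 13 higher and all upstream or in the first 100 bases, a stretch where 90.7% of all ALKBH5 shRNA-1 members were higher. The list's median effect was 1.61, beside 1.44 over all higher members of that stretch. RPL37A (4.01), RPL41 (3.34 at base 0), RPS19 (2.17 at base -37), RPL12 (1.87 at base 24) and RPS24 (1.84 at base 50) led. The same list held 3 genes for ALKBH5 shRNA-2, none in the first 100 bases (RPL13 -0.61, RPL24 0.58 and RPL41 0.69), and 1 for RBM33 shRNA-1 (RPS10, 0.98). Ribosomal protein genes share sequence with many pseudogene copies, so that their reads may be split.

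Translation initiation and elongation factors had 12 of 49 genes with a member for ALKBH5 shRNA-1, of which 6 were higher, 1 lower and 5 both, with a median of 1.20 over their rows, beside 0.97 over all ALKBH5 shRNA-1 members. EIF5B, which joins the ribosomal subunits, led with 2.78 at base 0, followed by EIF4A3 of the exon junction complex (2.00 at base -32) and EIF4G1, a scaffold that binds eIF4E (1.95 at base 100). EIF4EBP2, an eIF4E repressor, had 1.40 at base 10 and -2.85 at base 160. For ALKBH5 shRNA-2, 5 of 6 genes were lower in the authors' deposited table, such as EIF1 (-0.93) and EIF3J (-0.72 at base 43), while EIF3J had 1.40 at base -7 with ALKBH5 shRNA-1. SR and hnRNP splicing factors had 10 of 39 genes for ALKBH5 shRNA-1, 8 higher and 2 both, led by HNRNPAB (2.32), HNRNPM (2.11), SRSF1 (2.02) and SRSF3 (1.80). With ALKBH5 shRNA-2, 2 were higher and 3 lower, with SRSF4 at 1.75. With RBM33 shRNA-2, 3 of 3 were higher, SRSF3 at 1.68 among them. The median over all members was -0.63 for ALKBH5 shRNA-2 and 0.99 for RBM33 shRNA-2.

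Genes of the ATF4 and amino acid response had 10 of 28 with a member for ALKBH5 shRNA-1, with 3 higher, 2 lower and 5 both. The authors' deposited table gave DDIT4, an inhibitor of mTORC1 signalling, 2.80 at base -5 and 1.37 at base 241, and SLC1A5, a glutamine transporter, 1.66 at base 9 and -0.74 at base 109. HERPUD1, of protein disposal in the endoplasmic reticulum, had 1.22 at base -2. For ALKBH5 shRNA-2, 3 were higher and 3 lower, including SLC7A1 (1.52), SLC38A2 (-1.19 at base 61) and DDIT4 (0.54 at base 291). For RBM33 shRNA-2, 2 were higher.

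Of 34 immediate early genes, 6 had a member with ALKBH5 shRNA-1 and 6 with ALKBH5 shRNA-2, 3 genes higher and 3 lower in each, and JUNB alone had one with each RBM33 shRNA. JUN, the AP-1 partner of JUNB, had 2.32 at base -15 with ALKBH5 shRNA-1 and -0.75 at base 35 with ALKBH5 shRNA-2 in the authors' deposited tables. SRF (-1.21), IER5 (0.95), ZFP36L2 (1.58, ALKBH5 shRNA-2) and MCL1 (-1.05, ALKBH5 shRNA-2) were the others with the largest effects. Of 37 heat shock and chaperone genes, 3, 3, 1 and 1 had a member over the 4 tables, a share near that of all protein-coding genes for ALKBH5 shRNA-1 (7.92%). HSPA5, the chaperone of the endoplasmic reticulum, was higher with ALKBH5 shRNA-1 (2.08 at base 6) and ALKBH5 shRNA-2 (1.17 at base 256). BAG3, a co-chaperone, was lower at base 40 with ALKBH5 shRNA-2 (-1.62) and RBM33 shRNA-1 (-0.95), HSPA4 was higher in 2 tables (1.40 with ALKBH5 shRNA-2 and 1.24 with RBM33 shRNA-2), and with ALKBH5 shRNA-1 HSPE1 had 0.92 and DNAJA3 -0.82.

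Of the m6A and m6Am machinery, 4 of 28 genes had a member with ALKBH5 shRNA-1. These were HNRNPC, which binds RNA opened by m6A (2.87), IGF2BP2, a reader (2.41), FMR1 (2.34) and METTL5, a methyltransferase of ribosomal RNA (-0.78). METTL5 was also lower with ALKBH5 shRNA-2 (-0.67, the same base 300), and the reader YTHDF1 was higher in the authors' deposited ALKBH5 shRNA-2 (1.28) and RBM33 shRNA-2 (0.99) tables. Of 67 mTORC1 and autophagy genes, 5, 7, 0 and 1 had a member over the 4 tables, which for ALKBH5 shRNA-1 is near the share of all protein-coding genes. The kinase MTOR itself was lower with ALKBH5 shRNA-1 (-0.94 at base 100) and ALKBH5 shRNA-2 (-1.18 at base 50), and RRAGC, a GTPase that signals amino acids, was higher in both (1.39 and 0.87 at base 99). FLCN (1.95) and ATG13 (-1.44) were members with ALKBH5 shRNA-2 and RRAGA (1.47) with ALKBH5 shRNA-1. Of 24 p53 targets, 3 and 2 had a member with ALKBH5 shRNA-1 and shRNA-2 and 0 with either RBM33 shRNA, beside 0.374% and 0.848% of all protein-coding genes. Among them were BBC3 at 1.65, XPC at 0.74, PLK2 at -1.75 and -1.52, and TNFRSF10B at -1.01. Of 41 chromatin genes, 6, 3, 1 and 2 had a member, led by CHD3 (2.44) and SETD5 (-1.43), with EP300 at -1.02 and CHD7 at 0.98 in the ALKBH5 shRNA-1 table.

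A second deposited estimate, the methylated share of a site, covered some members. Per the authors' deposited table for ALKBH5 shRNA-1, 205 of 659 rows on protein-coding genes lay at 5′ ends by the same rule, and 165 of them had an authors' adjusted p below 0.05. Upstream or in the first 100 bases, 115 were higher and 13 lower, and from base 100 on 30 were higher and 47 lower. For the other 3 contrasts the rows at 5′ ends numbered 10, 2 and 4. Of the 10 for ALKBH5 shRNA-2, 9 were higher and 1 lower. Upstream or in the first 100 bases 3 of them were higher and 1 lower, where the m6A effects of that shRNA were mostly lower. The 2 and 4 rows of RBM33 shRNA-1 and shRNA-2 were all higher. Members that overlapped such a row numbered 146 for ALKBH5 shRNA-1, with 110 pairs higher in both measures, 30 lower in both and 6 opposite, and 3 for ALKBH5 shRNA-2. Both measures come from the same libraries. Among 90 higher members upstream or in the first 100 bases the median share was 61.1% with ALKBH5 shRNA-1, against 20.3% in the scramble. Among 29 lower members from base 100 on it was 36.5% with ALKBH5 shRNA-1, against 57.6% in the scramble. These members were picked by the direction of their m6A effect, and no overlapping share had an authors' adjusted p above 0.096. The direction of these gaps was thus largely set by the choice of rows, and the medians are a description only.

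The single genes named next are extremes. All but SRSF4 were among the 10 with the largest difference in share at an authors' adjusted p below 0.05 in the authors' deposited tables. The methylated share at base 24 of DNM2, the endocytic GTPase dynamin, was 100% with ALKBH5 shRNA-1, against 20.1% in the scramble (authors' adjusted p = 0.004). PGRMC1, a haem-binding membrane protein, had 78.1% with ALKBH5 shRNA-1, against 6.96% in the scramble. CBX5, a heterochromatin protein, had 76.3% with ALKBH5 shRNA-1 against 9.27% in the scramble, and RPS10 had 78.4% against 10.0%. RBM14 and the readthrough gene RBM14-RBM4 share 1 region, with 89.4% against 22.3%. AARSD1 had 72.1% against 8.03%, SUMF2 68.1% against 6.94% and UNC119B 67.7% against 8.43%. For SRSF4, a splicing factor, the ALKBH5 shRNA-2 share was 59.1%, against 18.4% in the scramble. The depth behind these shares is not given with them.

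**Figure D4:**
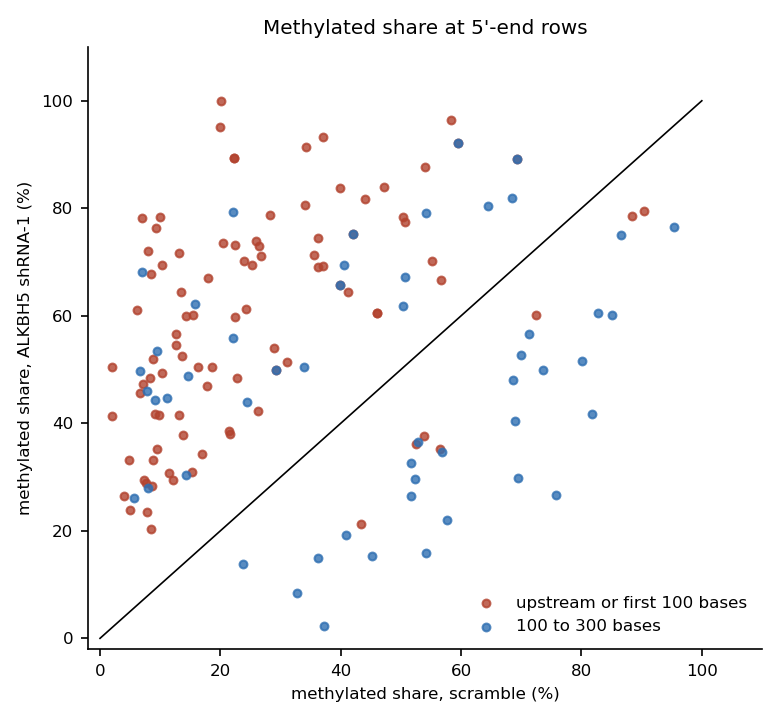
The authors' methylated share, in percent, of 146 member rows of the ALKBH5 shRNA-1 table, with ALKBH5 shRNA-1 on the vertical and its scramble on the horizontal axis; the line marks equal shares. Points upstream or in the first 100 bases lie mostly above the line, and the points below it come mostly from bases 100 to 300.

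RNA of the host genes was then compared, since the rule did not use it. RNA was tested over 18227 genes with limma on log2(CPM + 1), with calls at an adjusted p below 0.05. Of 1184 ALKBH5 shRNA-1 hosts tested, 134 rose (11.3%) and 70 fell (5.91%), where 5.05% of all genes rose and 3.48% fell, and 5.75% and 4.3% of the 13783 protein-coding genes tested. Of 726 ALKBH5 shRNA-2 hosts, 71 rose (9.78%) and 49 fell (6.75%), where 5.06% and 5.0% of all genes did, and 5.61% and 6.3% of protein-coding genes, so that the share of falls was near that of protein-coding genes. Of 55 RBM33 shRNA-1 hosts, 5 rose (9.09%) and 7 fell (12.7%), where 5.62% and 5.27% of all genes did, and 6.23% and 5.8% of protein-coding genes. Of 126 RBM33 shRNA-2 hosts, 9 rose (7.14%) and 23 fell (18.3%), where 6.44% and 7.27% of all genes did, and 6.83% and 8.72% of protein-coding genes. Hosts were more abundant than genes at large, with a median of 59.7, 50.1, 48.2 and 51.9 CPM over the 4 tables against 24.5 CPM for protein-coding genes and 15.8 CPM for all genes tested, and the part of abundance in these shares was not tested. Without shRNA-1 replicate 1 the called hosts of ALKBH5 shRNA-1 numbered 73 in place of 204, and without shRNA-2 replicate 1 those of ALKBH5 shRNA-2 numbered 42 in place of 120.

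The direction of RNA by the direction of m6A is given as counts. Among ALKBH5 shRNA-1 hosts with lower m6A only, 45 of 389 rose (11.6%) and 9 fell (2.31%) in RNA. Among those with higher m6A only, 82 of 739 rose (11.1%) and 56 fell (7.58%), where 5.75% and 4.3% of protein-coding genes did. Among ALKBH5 shRNA-2 hosts with lower m6A only, 49 of 418 rose (11.7%) and 29 fell (6.94%). With higher m6A only, 22 of 304 rose (7.24%) and 19 fell (6.25%), where 5.61% and 6.3% of protein-coding genes did. Among RBM33 shRNA-2 hosts with higher m6A, 7 of 115 rose and 23 fell. The median change of each set stayed between -0.16 and 0.07 log2, but for 0.3 log2 in the 5 RBM33 shRNA-1 hosts with lower m6A. How the authors' effect allows for the RNA level was not stated in the labels or files.

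JUNB and DDIT4 moved in RNA with all 4 shRNAs. JUNB RNA was 17.5 and 18.6 CPM with ALKBH5 shRNA-1 and 17.8 and 15.2 CPM with ALKBH5 shRNA-2, against 7.71, 8.14 and 7.54 CPM in the scramble. In the second set it was 13.2 and 19.3 CPM with RBM33 shRNA-1 and 18.2, 16.2 and 14.5 CPM with RBM33 shRNA-2, against 7.27, 9.38 and 7.33 CPM in the scramble. No shRNA library overlapped its scramble, and the rises were 1.11 ± 0.20, 0.99 ± 0.20, 0.92 ± 0.20 and 0.95 ± 0.18 log2 (SE; limma adjusted p = 0.0011, 0.0028, 0.004 and 0.00087). JUNB thus combined higher RNA with the lower m6A at base 260. Without ALKBH5 shRNA-2 replicate 1 (0.88 log2), or without RBM33 shRNA-1 replicate 2 (0.66 log2), that shRNA's rise no longer passed the test.

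DDIT4 RNA was 174 and 157 CPM with ALKBH5 shRNA-1 and 174 and 167 CPM with ALKBH5 shRNA-2, against 294, 294 and 313 CPM in the scramble. It fell by 0.86 ± 0.08 and 0.81 ± 0.08 log2 (SE; limma adjusted p = 2.7e-07 and 7.6e-07). In the libraries labelled RBM33 shRNA, whose tables held no DDIT4 member, it was 162 and 167 CPM with shRNA-1 and 178, 182 and 168 CPM with shRNA-2, against 361, 369 and 321 CPM in the scramble. There it fell by 1.08 and 0.99 log2 (limma adjusted p = 4.1e-09 and 1.8e-09). HSPA5 behaved alike: 450 and 440 CPM with ALKBH5 shRNA-1 and 418 and 435 CPM with ALKBH5 shRNA-2, against 896, 956 and 861 CPM in the scramble. Its RNA fell by 1.02 ± 0.08 and 1.08 ± 0.08 log2 (SE; limma adjusted p = 1.5e-08 and 4.3e-09), beside higher m6A in both ALKBH5 tables. With RBM33 shRNA-1 and shRNA-2 it fell by 1.04 and 1.09 log2, with no 5′-end row.

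AMH had the largest RNA change of any host in each of the 4 contrasts. It stood at 65.8 and 55.8 CPM with ALKBH5 shRNA-1 and 51.8 and 57.4 CPM with ALKBH5 shRNA-2, against 5.14, 4.30 and 6.03 CPM in the scramble. With RBM33 shRNA-1 it was 65.0 and 56.2 CPM and with RBM33 shRNA-2 52.5, 55.5 and 63.3 CPM, against 4.85, 2.75 and 4.77 CPM in the scramble. The rises were 3.33 ± 0.19, 3.18 ± 0.19, 3.61 ± 0.19 and 3.53 ± 0.17 log2 (SE; limma adjusted p = 1e-11, 2.8e-11, 2.6e-12 and 3e-13). AMH starts 653 bases downstream of the end of SF3A2, a splicing factor gene on the same strand, and some of its rows begin in that gap; whether these reads run on from SF3A2 was not tested.

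**Figure D5:**
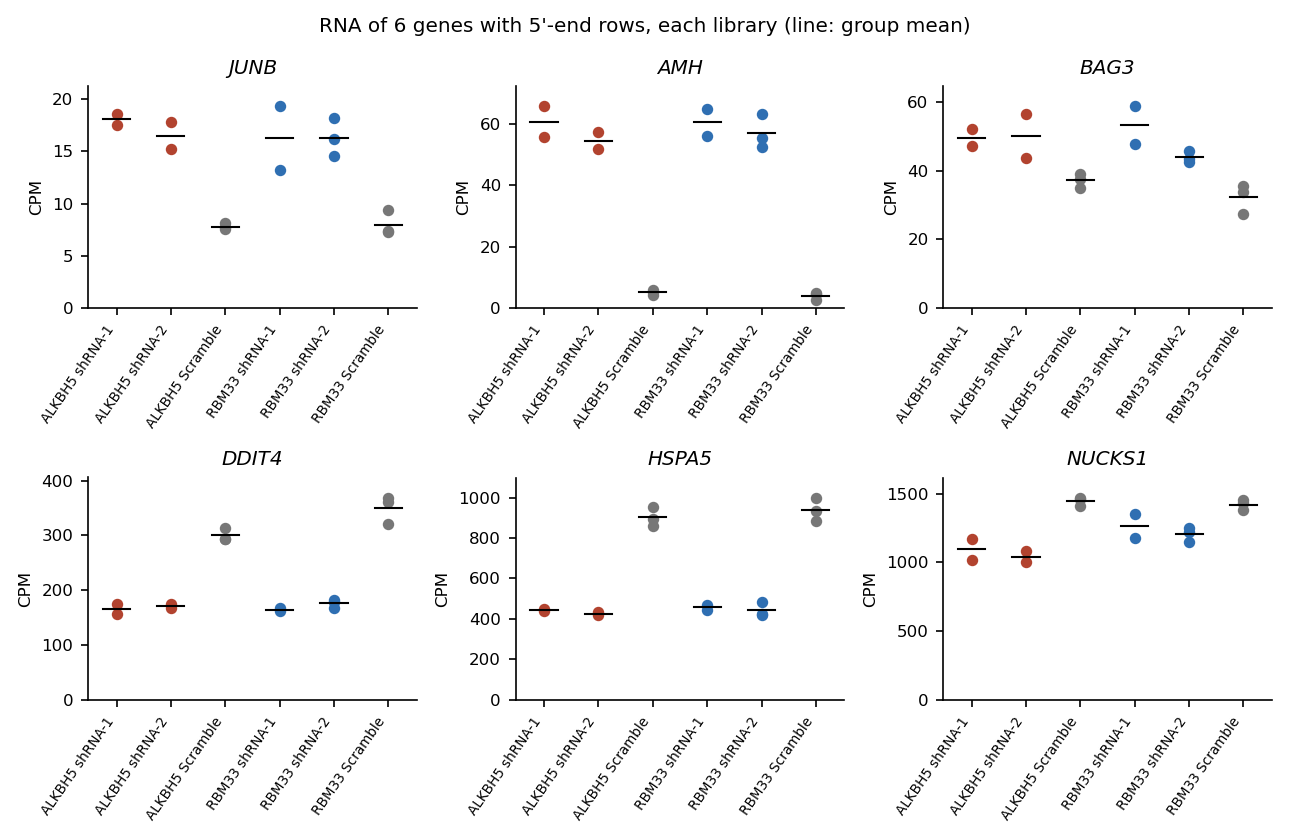
RNA of 6 genes with 5′-end rows in CPM, with 1 point per library and a line at the group mean, in the shRNA groups and scrambles of both sets. JUNB, AMH and BAG3 lie above the scrambles in every shRNA library, and DDIT4, HSPA5 and NUCKS1 lie below them.

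Other hosts with large RNA changes, all past the limma threshold in the contrast named, are given on the log2 scale. The 3 next largest rises for ALKBH5 shRNA-1 after AMH, beside JUNB, were EMILIN2, an extracellular matrix glycoprotein (1.33 log2), DDX39A, an RNA helicase of mRNA export (1.18), and COX6A1, a cytochrome oxidase subunit (1.04). EMILIN2 m6A was higher at base 224 in the authors' deposited tables for ALKBH5 shRNA-1 (1.47) and shRNA-2 (1.76). The largest falls beside HSPA5 and DDIT4 were ACBD7 (-0.98), PMM1, a phosphomannomutase (-0.93), and PPDPF (-0.92). ACBD7 no longer passed with no filter on low values, under the replicate block, or without 1 library (-0.60 without shRNA-1 replicate 1).

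For ALKBH5 shRNA-2 the other leading rises were EMILIN2 (1.27), SLIRP, a regulator of mitochondrial RNA (1.26), and PTRHD1 (0.94), and the falls were LOX, the collagen cross-linking lysyl oxidase (-1.08), ZNF449 (-0.85) and ALG9 (-0.78). Without shRNA-2 replicate 1, PTRHD1 (0.72) and ALG9 (-0.64) no longer passed. SLIRP m6A at base 0 was -2.16 in the authors' deposited table. For RBM33 shRNA-1 the other leading rises were BAG3 (0.70 ± 0.14), FOXO3 (0.33) and INTS3 (0.28), and the falls were G0S2 (-2.69 ± 0.28), MAF1, a repressor of RNA polymerase III (-0.82), FLYWCH1 (-0.70), AHCYL1 (-0.55) and EMD, the inner nuclear membrane protein emerin (-0.53). BAG3 no longer passed without RBM33 shRNA-1 replicate 2 (0.55 log2), and FOXO3, INTS3 and FLYWCH1 lost their calls without any 1 of several libraries. G0S2 was 3.62 and 5.35 CPM with RBM33 shRNA-1, against 33.1, 42.2 and 27.9 CPM in the scramble, and the groups did not overlap. G0S2 RNA also fell with RBM33 shRNA-2 (-2.94 log2) and with ALKBH5 shRNA-1 and shRNA-2 (-1.81 and -2.35 log2), whose tables held no G0S2 member.

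For RBM33 shRNA-2 the other leading rises were SLC10A5 (1.30), KMT2B, a histone methyltransferase (0.73), and IRS4, an insulin receptor substrate (0.71). The falls were CDH12, a cadherin (-1.66), MOXD1 (-0.91), DGAT1, of triglyceride synthesis (-0.89), EPHA6 (-0.75) and NUDCD2 (-0.70). SLC10A5, DGAT1 and EPHA6 each lost the call without some 1 library of their contrast. The 15 named genes with members in 3 or 4 tables were only part of such genes. They were the 3 in all 4 tables and, of the 23 in 3, those with the largest summed absolute m6A effects. Among them RNA was called in 14 of 48 pairs of gene and table, on 5 genes. Of all genes, 5.05 to 6.44% rose and 3.48 to 7.27% fell per contrast. AMH and JUNB were called in all 4 contrasts. NUCKS1 was called with ALKBH5 shRNA-1 and shRNA-2 (-0.41 and -0.48) and DCTPP1 with ALKBH5 shRNA-1 (0.68). STK26 was called with ALKBH5 shRNA-2 (-0.38) and with RBM33 shRNA-1 and shRNA-2 (-0.49 and -0.46). SRA1, higher in m6A in all 4 tables, passed the RNA test in none, with changes between 0.01 and 0.52 log2.

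RNA of the whole lists is given for comparison, beside the 5.05 to 6.44% of all genes that rose and the 3.48 to 7.27% that fell over the 4 contrasts. Of 80 ribosomal protein genes, 27 and 38 rose and 0 fell with ALKBH5 shRNA-1 and shRNA-2, with medians of 0.20 and 0.28 log2, and 0 rose and 11 and 24 fell with RBM33 shRNA-1 and shRNA-2, with medians of -0.15 and -0.20. The scrambles themselves differed here: RPL12 averaged 854 and 920 CPM with ALKBH5 shRNA-1 and shRNA-2, against 794 CPM in their scramble, and 866 and 812 CPM with RBM33 shRNA-1 and shRNA-2, against 1120 CPM in theirs. RPS10 averaged 333 and 353 CPM with the ALKBH5 shRNAs, against 267 CPM in their scramble, and 353 and 342 CPM with the RBM33 shRNAs, against 375 CPM in theirs. The part of the scrambles in the opposite directions was not tested. The 13 that hosted an ALKBH5 shRNA-1 member had 4 rises and 0 falls. Over ALKBH5 shRNA-1, ALKBH5 shRNA-2, RBM33 shRNA-1 and RBM33 shRNA-2 in turn, translation factors had 7, 8, 7 and 8 rises and 3, 4, 4 and 10 falls of 49. SR and hnRNP factors had 11, 8, 16 and 16 rises and 0, 1, 1 and 1 falls of 39. ATF4 and amino acid response genes had 2, 4, 1 and 1 rises and 7, 9, 13 and 14 falls of 28, the list with the most falls for its size in the RBM33 contrasts. Chromatin genes had 9, 3, 21 and 24 rises and 0, 1, 0 and 0 falls of 41. Heat shock and chaperone genes had 13 rises in each contrast and 3, 2, 2 and 5 falls of 36, and immediate early genes 9, 7, 9 and 6 rises and 0, 1, 0 and 2 falls of 33. The mTORC1 and autophagy list had 8, 6, 8 and 8 rises and 3, 5, 2 and 6 falls of 66, the p53 targets 4, 6, 4 and 5 rises and 2, 2, 2 and 1 falls of 24, and the m6A machinery 3, 2, 6 and 6 rises and 1, 1, 0 and 1 falls of 28. The difference between the ALKBH5 and RBM33 effects on RNA passed the test for 86 of 1717 hosts (5.01%), where 2.69% of all genes did. The ALKBH5 value was the larger in 68 and the RBM33 value in 18. Without RBM33 scramble replicate 1, or without replicate 2, the count was 47. Hosts are all protein-coding and more abundant than genes at large, and the share over protein-coding genes alone is not given here. The parts of abundance and of the scrambles in these counts were not tested.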

How the data were processed

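The authors' values were used as deposited. Per the submitters' processing notes, reads were handled with cutadapt 1.18, HISAT2 2.1.0, featureCounts of Subread 1.6.4 and edgeR 3.24.3 on hg38, and no source used here names the caller of the m6A tables. The deposited m6A effects are natural log values: 5.67 to 7.83% of them are logs of multiples of 0.5 on that base and 0% on base 2. The deposited p-values reach 0.0083 at most. The deposited methylated shares are fractions, printed as percent, with the authors' log2 ratio. The deposited RNA table is a signal in CPM (reads scaled to the library total) with 1 value per library, in which 100% of values are whole reads within 0.1 read. An RNA level of 3 reads is 0.43 to 0.659 CPM. Intervals and floors cover counting error only.

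Gene 5′ ends, names and types came from the deposited gene table (1-based hg38). Host RNA was fitted with limma 3.58.1 on log2(CPM + 1) over 18227 of 21797 genes (those whose mean reached 1 CPM), in 15 libraries of 6 groups (9 residual degrees of freedom), and Benjamini-Hochberg adjusted over all genes; a fold change on this scale understates that of low genes. Alternatives were other pseudocounts and filters, edgeR 4.0.16 and DESeq2 1.42.0 on recovered reads, a replicate block, and leaving out each library, tested also on simulated data. Pairs of replicates had a chi-square per degree of freedom of 3.03 to 9.09, so none agreed within sampling noise. The m6A-seq tables give no values per library here, so their rows were counted and described.

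The members, lists and named genes were chosen with earlier results of these data known. Named genes are, per table, the 5 highest and 5 lowest effects, genes in 4 tables and up to 15 with those in 3, up to 5 per list by absolute effect, 10 by methylated share, and per contrast the 5 hosts that rose and 5 that fell most in RNA, besides rows nearest the limit and the targeted genes.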

Additional observations from a re-analysis of the deposited data

Results flagged for a closer look

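Of 44 host genes examined, 3 had an RNA effect that differed between the ALKBH5 and RBM33 shRNAs by the test of the difference itself, the ALKBH5 effect minus the RBM33 effect in one limma fit, adjusted over all genes. COX6A1 had an ALKBH5 effect of 1.07 log2 and an RBM33 effect of -0.13, a difference of 1.20 ± 0.14 (SE; limma adjusted p = 1.2e-05). Its level was 109, 90.4, 113 and 95.0 CPM in the ALKBH5 shRNA libraries, against 45.6, 51.0 and 46.7 CPM in the scramble. It averaged 81.1 and 76.9 CPM with RBM33 shRNA-1 and shRNA-2, against 86.2 CPM in their scramble, so that the ALKBH5 scramble alone stood apart from the other groups. SLIRP had 1.1 and 0.32, a difference of 0.78 ± 0.17 (limma adjusted p = 0.013). It averaged 95.1 and 123 CPM with the ALKBH5 shRNAs, against 49.8 CPM in their scramble, and 81.5 and 89.3 CPM with the RBM33 shRNAs, against 67.9 CPM in theirs. MAF1 had -0.05 and -0.71, a difference of 0.65 ± 0.15 (limma adjusted p = 0.018). It averaged 45.5 and 43.3 CPM with the ALKBH5 shRNAs, against 46.0 CPM in their scramble, and 34.9 and 41.0 CPM with the RBM33 shRNAs, against 62.1 CPM in theirs. The 2 scrambles thus differed in level for each of these genes, and their part in the differences was not tested.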

How the results depend on the processing

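The split by distance governed the shares: with a limit of 100 bases, 89.0% of ALKBH5 shRNA-1 members and 10.7% of ALKBH5 shRNA-2 members were higher, and with 1000 bases 56.0% and 58.4%. Other choices gave, for ALKBH5 shRNA-1 and shRNA-2, 71.3% and 51.1% at an absolute effect of at least 1, 67.8% and 52.3% at an authors' p under 0.001, and for shRNA-2 47.6% with RefSeq gene starts. Member rows over the 4 tables numbered 697, 244, 19 and 26 within 100 bases and 2022, 1556, 152 and 333 within 1000 bases, 671 and 281 at p under 0.001 (ALKBH5), 348, 28 and 71 at an absolute effect of at least 1 (ALKBH5 shRNA-2 and both RBM33), and 91 with RefSeq starts (RBM33 shRNA-1). By shared host gene in place of shared bases, ALKBH5 shRNA-1 met RBM33 shRNA-1 and shRNA-2 in 20 and 40 genes, and ALKBH5 shRNA-2 met RBM33 shRNA-2 in 33. Of 3 ALKBH5 shRNA-2 members with a methylated share, 1 remained at a reciprocal overlap of 50%.

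Host genes called in RNA numbered 131, 52, 3 and 8 within 100 bases. Leaving out 1 library gave 73 to 154 for ALKBH5 shRNA-1, 42 to 96 for ALKBH5 shRNA-2, 7 to 9 for RBM33 shRNA-1, 24 to 28 for RBM33 shRNA-2 and 47 to 101 for the difference between effects; fewer libraries leave less power, and a lone library was assumed to vary like the other groups. The replicate block gave 164, 94, 11, 29 and 69. Same-numbered libraries did not pair (12 correlations of deviations from -0.17 to 0.15). Without AMH, an alternative chosen after seeing the data, the counts were 203, 119, 11 and 31. Over 84 named RNA results, 883 of 942 checks kept direction and call, 42 lost the call, 3 gained it and 14 changed sign. All 14 were of uncalled values, mostly near 0, though SRA1 with ALKBH5 shRNA-2 was 0.3 log2 in the main fit. With ALKBH5 shRNA-1, leaving out 1 library gave -0.18 to 0.36 for C1orf74 and -0.08 to 0.13 for JTB. It gave -0.04 to 0.07 for KMT2E and -0.05 to 0.17 for RBM39. With ALKBH5 shRNA-2 it gave -0.15 to 0.13 for JTB, -0.08 to 0.01 for KMT2E and -0.08 to 0.69 for SRA1. With RBM33 shRNA-2 it gave -0.09 to 0.14 for SRA1. The block gave 0.01 for JTB with ALKBH5 shRNA-2. The cause of these shifts was not tested.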

Other observations

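The same distance rule applied to genes of other types, mostly long non-coding RNAs and pseudogenes, gave 41, 48, 4 and 11 rows in the authors' deposited tables for ALKBH5 shRNA-1, ALKBH5 shRNA-2, RBM33 shRNA-1 and RBM33 shRNA-2. Upstream or in the first 100 bases, 15 were higher and 4 lower with ALKBH5 shRNA-1, and 6 were higher and 5 lower with ALKBH5 shRNA-2. From base 100 on, 13 were higher and 9 lower with ALKBH5 shRNA-1 and 27 were higher and 10 lower with ALKBH5 shRNA-2. All 11 were higher with RBM33 shRNA-2, and 3 of 4 with RBM33 shRNA-1.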
